A study of Mus musculus with 11 samples.

Results

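The orexin and melanin-concentrating hormone (MCH) genes are a set of 5 genes chosen by name: the ligand precursors Hcrt and Pmch, the orexin receptors Hcrtr1 and Hcrtr2, and the MCH receptor Mchr1. All 5 were found by their symbols among the 14864 genes of the deposited table, and all 5 passed the filter on low values. The table gives gene expression in the adult mouse hypothalamus from 11 libraries, each labelled as 1 sample, of mice at postnatal day 60 to 70. The WT group was wild type (2 females, 3 males) and the Het group heterozygous for a mutation of Myt1l, a zinc finger transcription factor of neurons (3 females, 3 males). The labels name no treatment, and give neither the Myt1l allele nor the strain. They do not say that each library came from its own animal, so p-values measure only the spread between these samples. Myt1l itself had 76.3 ± 15.9 CPM in WT (SD, n = 5) against 76.3 ± 26.9 in Het (SD, n = 6), which differ by -0.01 in log2 units. WT replicate 11 (51.1 CPM, the lowest of all) and Het replicate 9 (130 CPM, the highest) go against their labels. With the allele unknown, whether reads over Myt1l would show its loss is unknown too, and WT and Het below mean the libraries so labelled.

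Orexin and MCH neurons are neighbouring but separate populations of the lateral hypothalamus that project widely through the brain. Hcrt encodes prepro-orexin, which is cleaved into orexin A and orexin B. These peptides keep animals awake and promote feeding and reward seeking, and loss of orexin neurons causes narcolepsy. Pmch encodes the precursor of MCH, a peptide that raises food intake and is released in sleep. Hcrtr1 prefers orexin A, Hcrtr2 binds both orexins, and Mchr1 is the only MCH receptor in mice.

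The promoters of Hcrt and Pmch, the genes of the set that passed the test between the genotypes, are shown because both were lower in Het. Each is the 250 bases before the RefSeq start (GRCm38.p6), 5′ to 3′ on the gene's strand, and the capitals mark the only match to any of the 4 motifs searched, a TATA box (TATAAA). Hcrt lies on the minus strand (promoter at chr11:100762932-100763181) and Pmch on the plus strand (chr10:88090822-88091071).
Hcrt promoter: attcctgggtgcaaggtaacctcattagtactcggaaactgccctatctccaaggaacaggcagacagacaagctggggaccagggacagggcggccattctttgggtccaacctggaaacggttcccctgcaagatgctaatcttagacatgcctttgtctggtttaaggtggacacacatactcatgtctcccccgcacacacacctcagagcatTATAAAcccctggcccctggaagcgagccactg
Pmch promoter: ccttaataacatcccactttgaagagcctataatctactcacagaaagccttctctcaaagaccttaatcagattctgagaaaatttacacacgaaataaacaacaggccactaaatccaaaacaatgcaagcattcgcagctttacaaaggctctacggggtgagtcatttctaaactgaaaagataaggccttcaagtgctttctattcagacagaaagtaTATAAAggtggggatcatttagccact

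The TATA box began 33 bases before the start of Hcrt and 27 bases before that of Pmch. On either strand, 12.4% of the 32851 mouse promoters of the same length held TATAAA. The core that MYT1 family zinc fingers bind, AAGTTT, had no match in either window, against 12.8% of all promoters. The nuclear receptor half-site AGGTCA (14% of promoters) and the cyclic AMP response core TGACGT (6.47%) also had no match in either. AGGTCA matched once in the promoter of Hcrtr2 and once in 1 of 3 promoters of Hcrtr1. None of the windows of Mchr1, Hcrtr1 (3 starts) and Hcrtr2 held TATAAA or AAGTTT. RefSeq supplied 7 promoters for the 5 genes. A missing match says only that these letters are not in this window.

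Levels are corrected counts scaled to the library total (CPM), and between genes they are compared per kb of exon. Hcrt was the most abundant of the set at 1453 ± 290.5 CPM per kb (SD, n = 11) and stood at rank 20 among 14856 genes with a known exon length. Pmch followed at 625.2 ± 160.1 CPM per kb and rank 91. The receptors were far lower, with Mchr1 at 11.58 ± 2.43, Hcrtr1 at 3.34 ± 0.857 and Hcrtr2 at 1.17 ± 0.224 CPM per kb. This order held in all 11 libraries, and no neighbours in it overlapped: Hcrt ranged from 1034 to 1970 CPM per kb and Pmch from 413.1 to 890.0. Mchr1 ranged from 8.57 to 16.28, Hcrtr1 from 1.80 to 4.96 and Hcrtr2 from 0.993 to 1.59 CPM per kb.

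Both ligand precursors were lower in Het, and no receptor passed the test. Hcrt fell by 0.38 on the log2 scale and Pmch by 0.45. Over all genes, 3.44% passed this test in either direction and 1.14% were lower in Het, which is the background for 2 of 5 genes lower here. The 5 genes were chosen with earlier results of these data known, so this comparison does not test the set. In whole hypothalamus, fewer cells of a type and less RNA per cell cannot be told apart.

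Hcrt (ENSMUSG00000045471, mm10 chromosome 11 from 100761069 to 100762931, 3 exon blocks) had 1476 and 1393 CPM in the WT females and 937.8, 1214 and 1146 CPM in the WT males, replicates 3, 7 and 11. In Het it had 1048, 1089 and 1132 CPM in the females and 883.6, 876.8 and 774.2 CPM in the males. Within each sex every Het library was below every WT library, and within each genotype every female was above every male. The Het females lay inside the range of the WT males, with means of 1090 and 1099 CPM. Pooled over sex the groups overlapped, with a mean of 1233 ± 212 CPM for WT (SD, n = 5) against 967 ± 142 for Het (SD, n = 6). The fitted change was -23.4% (95% confidence interval -30.4% to -15.6%), or -0.38 on the log2 scale (SE 0.065, limma adjusted p = 0.00707). An exact permutation of genotype within sex gave p = 0.005 (two-sided), the smallest that 200 arrangements allow.

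Pooled over sex, none of the 5 genes separated the groups, against 3.35% of all genes in either direction and 1.33% with Het lower. Of 13184 genes tested, 3.6% had every Het library below every WT library within both sexes, and 62 genes, or 0.47%, also had every female above every male within both genotypes. Besides Hcrt those 62 include Avp and Oxt, named after their values were seen, which encode vasopressin and oxytocin of other hypothalamic neurons. Most of the 62 do not encode neuropeptides. The fall of Hcrt passed whichever library was left out, with log2 differences of -0.44 to -0.35 and limma adjusted p of 0.00104 to 0.0272. Without Het replicate 9 and WT replicate 11, whose Myt1l levels go against their labels, it was -0.34 (limma adjusted p = 0.0385). The difference was -0.40 in females and -0.37 in males, and neither passed alone: in limma 0 genes passed in females, where 1743 had an unadjusted p under 0.05. In males 0.0683% of all genes passed (0.0152% with Het lower). These are contrasts within the fit of all 11 libraries with the interaction. The library identifiers carry 3 prefixes of unstated meaning. Within prefix 14308 (4 males) Hcrt differed by -0.28 and Pmch by -0.48, and within prefix 14309 (6 libraries) by -0.44 and -0.52, none of which passed. Prefix 14111 holds a single WT library.

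**Figure D1:**
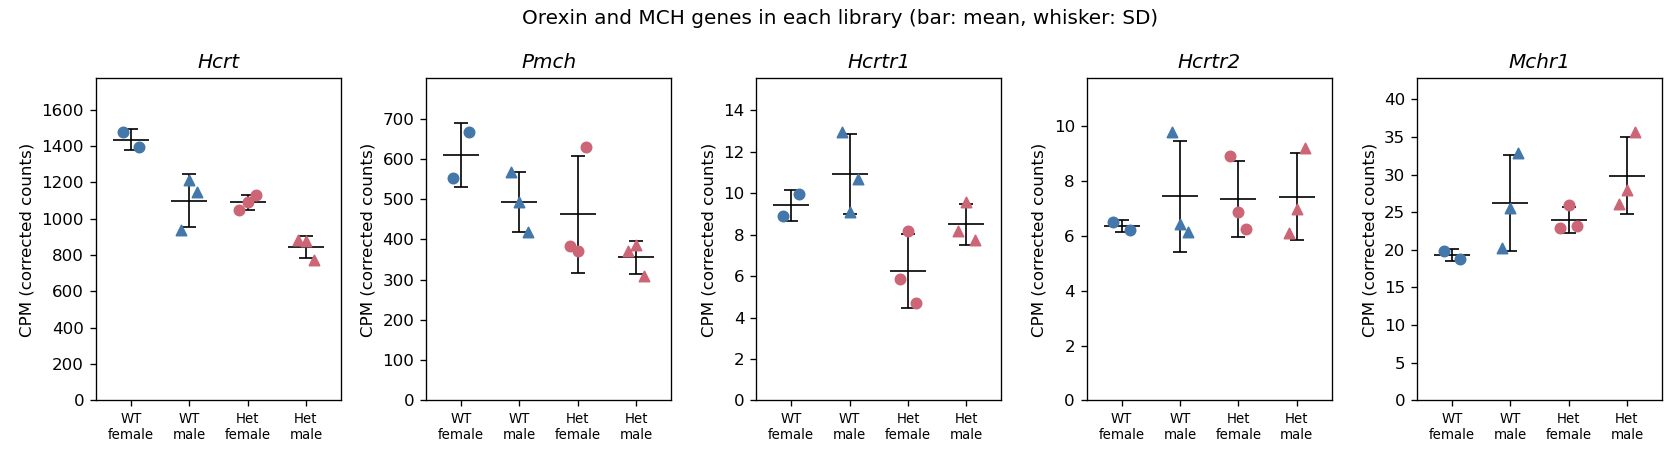
Level of each gene (CPM of corrected counts, axis from 0) in every library, with circles for females, triangles for males, bars for the mean and whiskers for the SD. Hcrt is highest in WT females (1393 and 1476 CPM) and lowest in Het males (774.2 to 883.6 CPM), with Het females inside the range of WT males. Hcrtr2 lies between 6.12 and 9.78 CPM in all groups.

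Pmch (ENSMUSG00000035383, chromosome 10 from 88091072 to 88092375, 3 exon blocks) had 553.0 and 666.6 CPM in the WT females and 568.4, 492.7 and 417.3 CPM in the WT males. In Het it had 384.8, 371.5 and 630.4 CPM in the females, replicates 2, 4 and 7, and 372.0, 384.9 and 309.4 CPM in the males. Thus 5 of 6 Het libraries were below all 5 WT libraries, and Het replicate 7 alone lay inside the WT range. The mean was 540 ± 92.6 CPM for WT (SD, n = 5) against 409 ± 112 for Het (SD, n = 6). The fitted change was -26.9% (95% confidence interval -38.8% to -12.8%), or -0.45 on the log2 scale (SE 0.12, limma adjusted p = 0.0488), with an exact permutation p of 0.035.

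The Pmch call is at the edge of the threshold. It did not pass in 9 of 11 runs that left out 1 library (limma adjusted p up to 0.137), passing only without WT replicate 11 or Het replicate 7, and without Het replicate 9 and WT replicate 11 the difference was -0.46 (limma adjusted p = 0.0816). Parpbp overlaps 58.1% of the exon bases of Pmch on the opposite strand, and the sources used here do not say if reads were counted by strand. Parpbp itself had 0.419 to 1.39 CPM.

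In ratio to each other the ligands overlapped between the genotypes. Hcrt was 2.32 ± 0.455 times Pmch in WT (SD, n = 5) and 2.43 ± 0.393 times in Het (SD, n = 6). Within a library the ratio ran from 1.65 in WT replicate 3 to 2.93 in Het replicate 4. The group ranges overlapped, and the ratio was not tested.

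Hcrtr1 (ENSMUSG00000028778, chromosome 4 from 130130217 to 130139359) had 8.89 and 9.95 CPM in the WT females and 12.95, 9.10 and 10.67 CPM in the WT males. The Het females had 5.87, 8.18 and 4.70 CPM and the Het males 8.17, 9.60 and 7.72 CPM. Here 5 of 6 Het libraries were below all WT libraries, with Het replicate 8 inside the WT range. The log2 difference of -0.45 (SE 0.148, 95% confidence interval -0.76 to -0.13) was as large as that of Pmch but did not pass over all genes (limma adjusted p = 0.0971). The exact permutation p for the single gene was 0.03.

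Hcrtr2 (ENSMUSG00000032360, chromosome 9 from 76225880 to 76323856), the orexin receptor of histamine neurons, gave no separation. It had 6.13 to 9.78 CPM in WT (median 6.42) and 6.12 to 9.19 CPM in Het (median 6.93). The ranges overlap throughout, and the highest values were in WT replicate 3, Het replicate 9 and Het replicate 2. The log2 difference was 0.08 (95% confidence interval -0.25 to 0.42, limma adjusted p = 0.79, exact permutation p = 0.635), and in percent the interval runs from -15.7% to 33.3%.

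The ratio of the orexin receptors to each other was set side by side for each library. Per kb of exon, Hcrtr1 was 3.52 ± 0.415 times Hcrtr2 in WT (SD, n = 5) and 2.42 ± 0.738 times in Het (SD, n = 6). The WT ratios ran from 3.13 to 4.11 and the Het ratios from 1.56 to 3.25, so the ranges overlap, with Het replicates 5 and 8 inside the WT range. This ratio was not tested.

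Mchr1 (ENSMUSG00000050164, chromosome 15 from 81235499 to 81238964, 2 exon blocks) did not pass between the genotypes. It had 19.83 and 18.76 CPM in the WT females and 20.20, 25.50 and 32.90 CPM in the WT males. The Het females had 22.86, 26 and 23.19 CPM and the Het males 26.03, 27.91 and 35.64 CPM. All 3 Het females were above both WT females, while in males only Het replicate 9 was above all WT libraries. None of the 5 genes had every Het library above every WT library within both sexes, as 3.88% of all genes did. Mchr1 differed by 0.25 in log2 units (SE 0.116, 95% confidence interval 0.002 to 0.49) (limma adjusted p = 0.221, exact permutation p = 0.095).

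**Figure D2:**
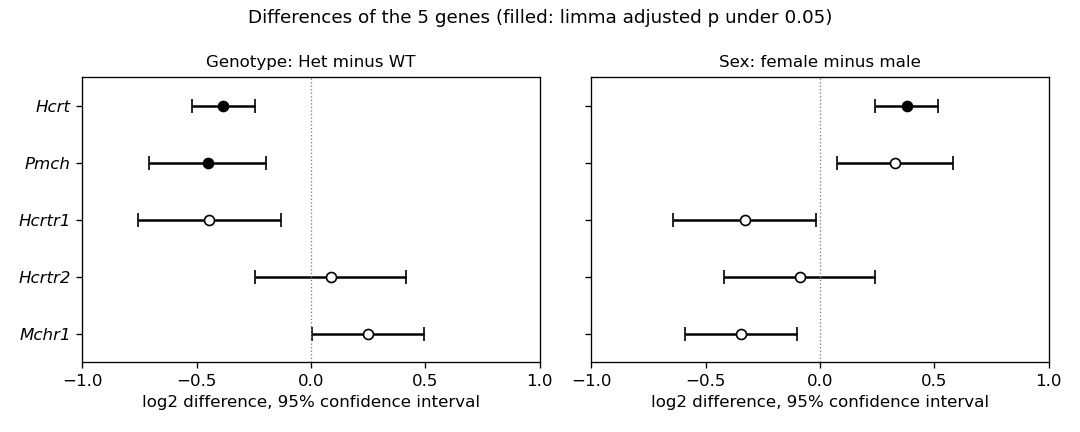
Fitted log2 differences of the 5 genes with 95% confidence intervals, for genotype (left) and sex (right), where filled points passed the limma test. Hcrt (-0.38) and Pmch (-0.45) passed between the genotypes, and Hcrt (0.38) passed between the sexes.

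Regional markers were set beside these results, and their association with the 5 genes was not tested. All 14 striatal markers had a positive difference between Het and WT, 6 rose and the median was 0.45, against -0.016 over all genes. Their summed level was 347.5 to 584.0 CPM in WT and 462.6 to 811.2 CPM in Het, and no striatal marker was at 0. Striatal medium spiny neurons are themselves a site of Mchr1 expression. The libraries with the lowest striatal sums (WT replicates 3 and 6) had 568.4 and 666.6 CPM of Pmch, and the highest (Het replicate 9) had 309.4 CPM. Het replicate 7, the Het library with WT-like Pmch, had the lowest striatal sum of its group (462.6 CPM). The levels did not follow the sums throughout: Het replicate 5 (486.7 CPM of striatal markers) and Het replicate 4 (704 CPM) had 372.0 and 371.5 CPM of Pmch, while WT replicate 4 (470.3 CPM) had 553.0.

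With the mean log2 level of the striatal markers as a covariate, the difference of Pmch was -0.04 (limma adjusted p = 0.933) and that of Mchr1 turned to -0.18 (limma adjusted p = 0.581). Hcrt no longer passed in the same fit (-0.34, SE 0.11, limma adjusted p = 0.19). In that fit 2 genes of 13184 passed. All 14 striatal markers had a positive difference between Het and WT, so the covariate is tied to genotype. The fit therefore cannot tell genotype and striatal level apart.

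Markers of the hypothalamus itself were compared in the same way. The 15 hypothalamus markers, which include Avp and Oxt but none of the 5 genes, were all in the table, 14 were tested, 12 had a negative difference and 2 fell (Avp and Oxt), with a median of -0.24. Their summed level was 1523 to 1602 CPM in the WT females, 1156 to 1366 in the WT males, 1225 to 1353 in the Het females and 772.0 to 987.8 CPM in the Het males. Avp and Oxt made up 49.7% to 68.4% of that sum, by library. The other 13 markers summed to 481.3 to 548.1 CPM in WT and 359.6 to 549.3 CPM in Het, so without Avp and Oxt the sums overlapped. Without Het replicate 9 and WT replicate 11 the median of the 14 was -0.07. A covariate added after seeing the data was the mean log2 level of the 14 tested markers, in which each marker counts equally, unlike in the sums. With it Hcrt was at -0.27 (SE 0.087, limma adjusted p = 0.183) and Pmch at -0.41 (limma adjusted p = 0.296). Since 12 of the 14 had a negative difference, this covariate too is not independent of genotype. The part of tissue composition in the differences was not tested beyond these fits.

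**Figure D3:**
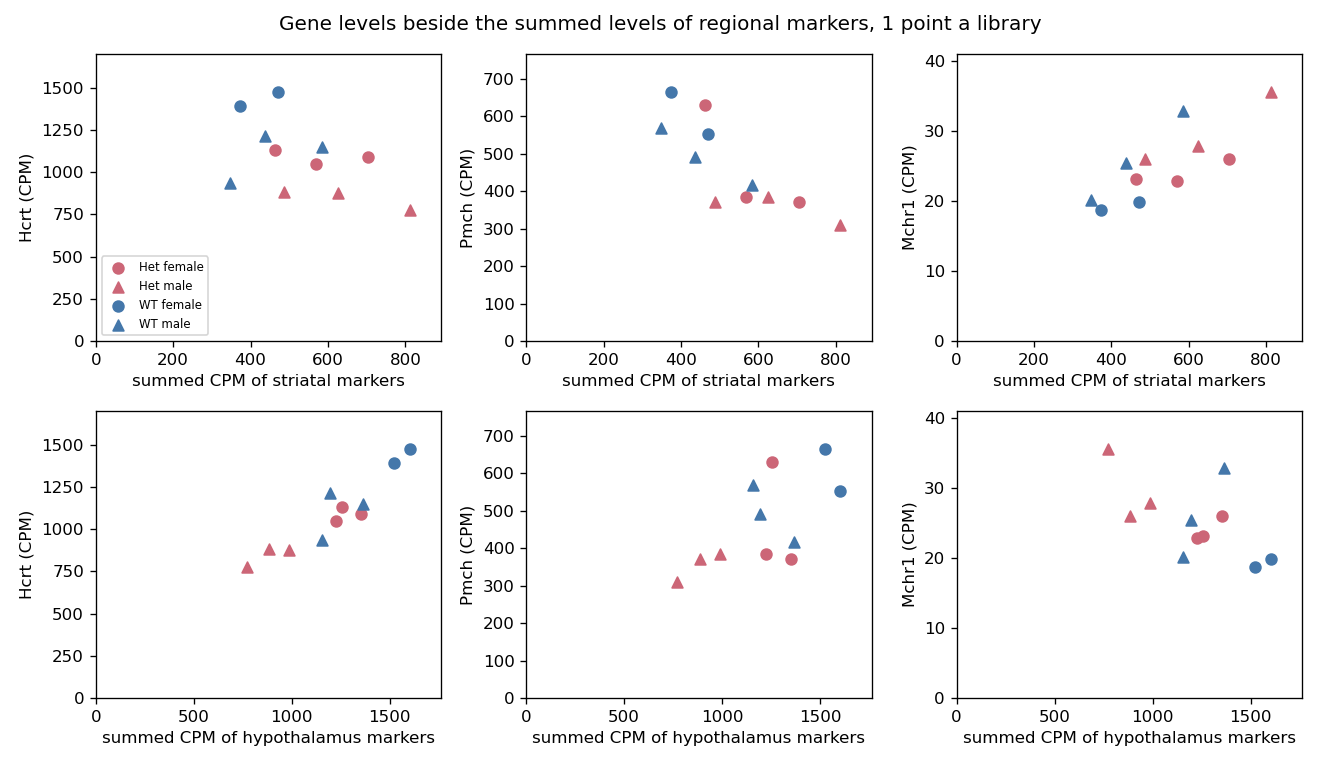
CPM of Hcrt, Pmch and Mchr1 against the summed CPM of the striatal markers (top) and the hypothalamus markers (bottom), with 1 point a library and all axes from 0. Hcrt is highest in the WT females, whose hypothalamus marker sums (Avp and Oxt included) are 1523 and 1602 CPM, and Pmch is lowest in Het replicate 9, whose striatal sum is 811.2 CPM.

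Between the sexes, Hcrt was the only gene of the set that passed. It was 30.0% higher in females (95% confidence interval 18.2% to 43.1%), at 1228 ± 193 CPM in 5 females and 972 ± 171 CPM in 6 males, or 0.38 in log2 units (limma adjusted p = 0.0244, exact permutation of sex within genotype p = 0.005). Over all genes 0.197% passed between the sexes (26 genes) and 0.0758% as higher in females, and Hcrt stood at rank 13 by p. Every female was above every male within both genotypes in 1.71% of all genes. The call was lost in 7 of 11 runs that left out 1 library (0.33 to 0.41, limma adjusted p up to 0.0804): those without WT replicates 4 or 6, or Het replicates 2, 4, 7, 8 or 9. It was lost as well without both libraries in doubt (0.36, limma adjusted p = 0.0708), with prefix as a block (0.39, limma adjusted p = 0.265), with the striatal mean as a covariate (0.36, limma adjusted p = 0.0684) and with 1 residual degree of freedom fewer (limma adjusted p = 0.0501). In all, 12 of 18 alternatives lost it.

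Avp and Oxt, which mark the magnocellular neurons, were also higher in females, by 0.67 and 0.66 on the log2 scale (limma adjusted p = 0.00103 and 0.00182). They were the only hypothalamus markers of 14 to pass, with 10 positive differences and a median of 0.17. With the hypothalamus marker mean as a covariate the sex difference of Hcrt was 0.29 (limma adjusted p = 0.5).

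The other genes did not pass between the sexes. Pmch was at 521 ± 137 CPM in females (n = 5) and 424 ± 92.7 CPM in males (n = 6), a log2 difference of 0.33 (limma adjusted p = 0.282). Mchr1 was lower in females, at 22.1 ± 2.89 against 28.0 ± 5.54 CPM, with every female below every male within each genotype, as in 1.84% of all genes, but it did not pass either (-0.35, limma adjusted p = 0.247). Hcrtr1 was at -0.33 (limma adjusted p = 0.385) and Hcrtr2 at -0.09 (limma adjusted p = 0.861).

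The genotype differences of the 5 genes were not shown to differ between females and males. The interaction was -0.02 for Hcrt on the log2 scale (95% confidence interval -0.32 to 0.27) and 0.03 for Pmch (-0.51 to 0.57). For Hcrtr1, Hcrtr2 and Mchr1 it was -0.25, 0.17 and 0.11. In the limma fit none of the 13184 genes passed for the interaction, with 613 at an unadjusted p under 0.05.

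Levels of the 5 genes were then compared between libraries of the same genotype and sex, as deviations from the mean of each of the 4 groups. Hcrt and Pmch showed no relation (r 0.01, rho -0.07, exact permutation p = 0.981 and 0.868). Their r was 0.22 without the 2 farthest libraries and 0.34 within the 6 libraries of identifier prefix 14309. The authors' correction removes variation estimated from residuals, so shared variation may have been lost before this comparison. The strongest of the 10 pairs was Hcrt with Hcrtr2, which went in opposite directions (r -0.89 with an exact permutation p of 0.0208, rho -0.86 with 0.0116). After adjustment for 10 pairs these were 0.162 and 0.116, so the relation failed the correction. Without the 2 farthest libraries r was -0.71, and within the 6 libraries of identifier prefix 14309 it was -0.93. Pmch with Mchr1 had r -0.61 and rho -0.67 (exact permutation p = 0.0324 and 0.0463, adjusted 0.162 and 0.231), r -0.78 without the 2 farthest libraries and -0.55 within prefix 14309. In 3 of the 4 groups the library with the least Hcrt had the most Hcrtr2: WT replicate 3, Het replicate 2 and Het replicate 9.

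Genes with the most similar deviations over the 11 libraries were listed for each of the 5, as a description among 12891 genes and without a test. For Hcrt they were Olfm2 (r 0.989), which encodes a secreted olfactomedin, Wwtr1 (0.969), the Hippo pathway coactivator TAZ, and Ttll9 (0.966). For Pmch they were Sphkap (0.996), an anchor of protein kinase A, Rmdn2 (0.992) and Apoc1 (0.979), an apolipoprotein. For Hcrtr1 they were Scn9a (0.984), a voltage-gated sodium channel, Apobec1 (0.965) and Proz (0.960). For Hcrtr2 they were Gpat4 (0.967), an acyltransferase of lipid synthesis, Ano3 (0.954) and Zfp26 (0.95). For Mchr1 they were Stard10 (0.981), a lipid transfer protein, Auts2 (0.977) and Lmo2 (0.976). None of the 5 genes was among the 3 most like another. All these libraries share their depth scaling and the correction made by the authors.

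No other gene listed for orexin or MCH neurons passed as lower, where 1.14% of all genes did. With so few genes listed, that absence does not show that these neurons were otherwise unchanged. Among 9 orexin neuron markers 1 rose, 8 missed the threshold and the median was -0.12. Pdyn, the dynorphin precursor that orexin neurons also make, rose from 107 ± 15.4 to 141 ± 28.2 CPM, a change of 0.41 (SE 0.101, limma adjusted p = 0.0368). Pdyn did not pass without Het replicate 9 and WT replicate 11, and striatal neurons express it too. Scg2, a granin of dense core vesicles, was at -0.16 (limma adjusted p = 0.0967), Ebf2, a transcription factor, at 0.46 (0.177) and Slc17a6, the vesicular glutamate transporter of both orexin and MCH neurons, at -0.12 (0.356).

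Of 6 tested MCH neuron markers none passed, where 3.44% of all genes did, and the median was -0.09. Nucb2, the precursor of nesfatin-1, was at -0.27 (limma adjusted p = 0.0566). Gad1, an enzyme of GABA synthesis, was at 0.16 (0.106), and Cartpt, the CART precursor, went from 197 ± 12.6 to 183 ± 15.7 CPM without passing (0.193).

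Peptide genes of neighbouring and more distant hypothalamic neurons had negative differences more often than positive ones. Of 9 other lateral hypothalamic peptide genes, Gal, the galanin precursor, fell by 0.34 on the log2 scale (limma adjusted p = 0.0278), Pdyn rose and 7 did not pass. Sst, the somatostatin precursor, was at -0.17 (limma adjusted p = 0.0845) and Penk, the enkephalin precursor, at 0.37 (0.117), with 14.3% of its exon bases overlapped by an antisense gene. Of 27 tested hypothalamic peptide precursors, 4 fell, 1 rose and 22 did not pass, 23 were negative and the median was -0.24. The 4 were Avp (-0.65), Oxt (-0.49), Adcyap1 (-0.39), which encodes PACAP, and Gal. The 9 other lateral hypothalamic peptide genes are all among the 27 as well. Over all genes 47.0% were positive, 1.14% passed as lower and 2.3% as higher. These lists too were drawn up with earlier results of these data known.

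The genes that process and store such peptides were also mostly negative. Of 11, none passed, where 3.44% of all genes did, 10 were negative and the median was -0.18. Their summed level was 4853 to 5351 CPM in WT and 4093 to 4809 CPM in Het, so the sums did not overlap. How often the sum of such a list separates the groups by chance was not tested. Cpe, the carboxypeptidase that trims peptide precursors, was at -0.23 (limma adjusted p = 0.0513), Scg5, a helper of the prohormone convertase PC2, at -0.22 (0.0682) and Chgb, a granin, at -0.18 (0.0912). Cpe and Scg2 had the highest levels of the list, and each overlapped between the groups singly, as most of the 11 did.

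Genes of the signalling path below the receptors had mostly positive differences. Orexin receptors and the MCH receptor couple to Gq, which activates phospholipase C, and to Gi and Go. Of 21 tested signalling genes 6 rose, none fell and 15 did not pass, with 17 positive and a median of 0.24, where 2.3% of all genes passed as higher. The list was drawn up with earlier results of these data known, so the count does not test the path. Gnaq, the Gq alpha subunit, rose from 148 ± 3.5 to 195 ± 11.1 CPM (0.40, SE 0.053, limma adjusted p = 0.00349) without overlap of the groups, as in 2.02% of all genes. Prkcb, a protein kinase C, rose by 0.40, Rgs8, a regulator of G protein signalling that dampens MCH receptor signals in cultured cells, by 0.43, and Dgkb, a diacylglycerol kinase, by 0.34. The other risers, named after their values were seen, were Gna11 (0.21), the closest relative of Gnaq, and Itpr1 (0.33), the IP3 receptor. Other annotated genes overlap 0.7% to 6.1% of the exon bases of Rgs8, Itpr1, Ebf2, Kif17, Ift88, Slc1a2 and Myt1l, so their counts are less certain.

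The summed level of the signalling genes was 1041 to 1126 CPM in WT and 1222 to 1295 CPM in Het. Without Het replicate 9 and WT replicate 11, 4 of the 21 passed. With the striatal mean as a covariate none passed, in a fit where 2 of all genes did, and 18 of 21 were positive with a median of 0.14. With the hypothalamus marker mean none passed either, and 19 were positive with a median of 0.23. The part of the striatal markers in these differences was not tested beyond these fits.

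Over all genes 3.44% passed in either direction, so a list of about 10 genes with none passing is near that share. Of 12 genes of the primary cilium, the organelle in which the MCH receptor sits on neurons, none passed and the median was -0.04. Those with the smallest p-values, Kif17 (0.19), Bbs5 (-0.16), Tulp3 (-0.21) and Ift88 (0.09), had limma adjusted p of 0.348 to 0.605. Of 10 tested genes listed for arousal neurons, none passed and the median was -0.11. These libraries are of hypothalamus and do not show which cells the RNA came from, so the values do not describe arousal neurons elsewhere in the brain. Maob, which breaks down monoamines, was at -0.19 (limma adjusted p = 0.105), Ddc, an enzyme of dopamine and serotonin synthesis, at -0.32 (0.141), Slc5a7, the choline transporter, at 0.29 (0.272) and Th, the rate-limiting enzyme of dopamine synthesis, at -0.26 (0.363).

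**Figure D4:**
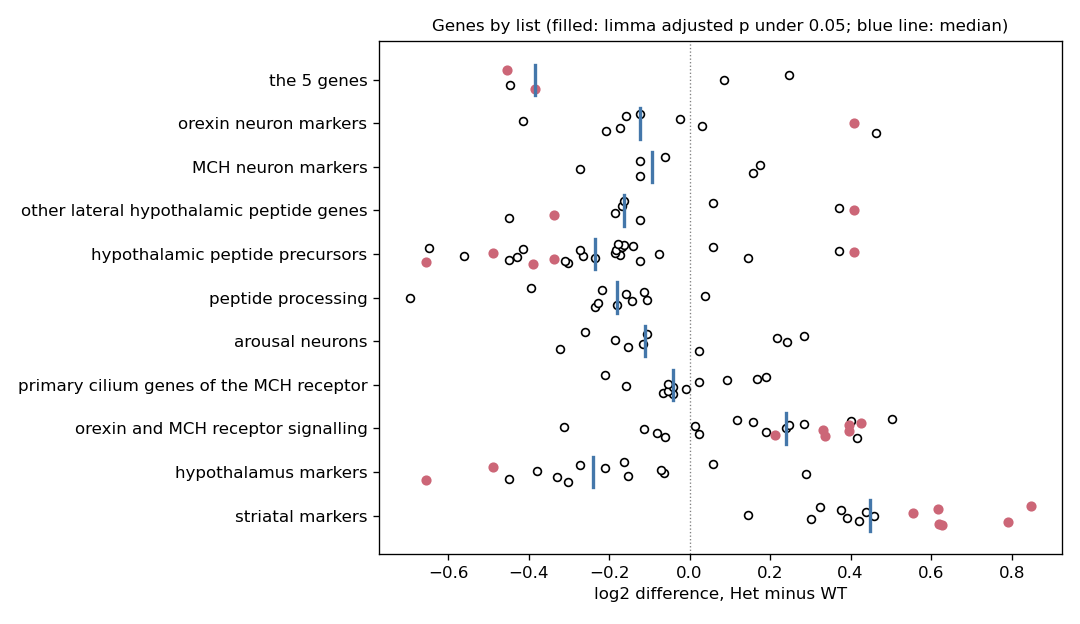
Log2 differences between Het and WT for every tested gene of each list, where filled points passed the limma test and blue lines are list medians. The medians are 0.24 for receptor signalling, 0.45 for striatal markers and -0.24 for both hypothalamic peptide precursors and hypothalamus markers.

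Markers of other cell types were counted too, where 3.44% of all genes passed in either direction and 2.3% as higher. Of 10 thalamic markers Tcf7l2 rose, with a median of 0.15, and of 10 cortical and hippocampal markers none passed, with a median of -0.13. Of 6 astrocyte markers, Slc1a2 rose (both named after their values were seen) and the median was 0.00. None of 6 oligodendrocyte, 6 microglia or 6 endothelial markers passed, with medians of 0.03, -0.04 and -0.05.

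**Figure D5:**
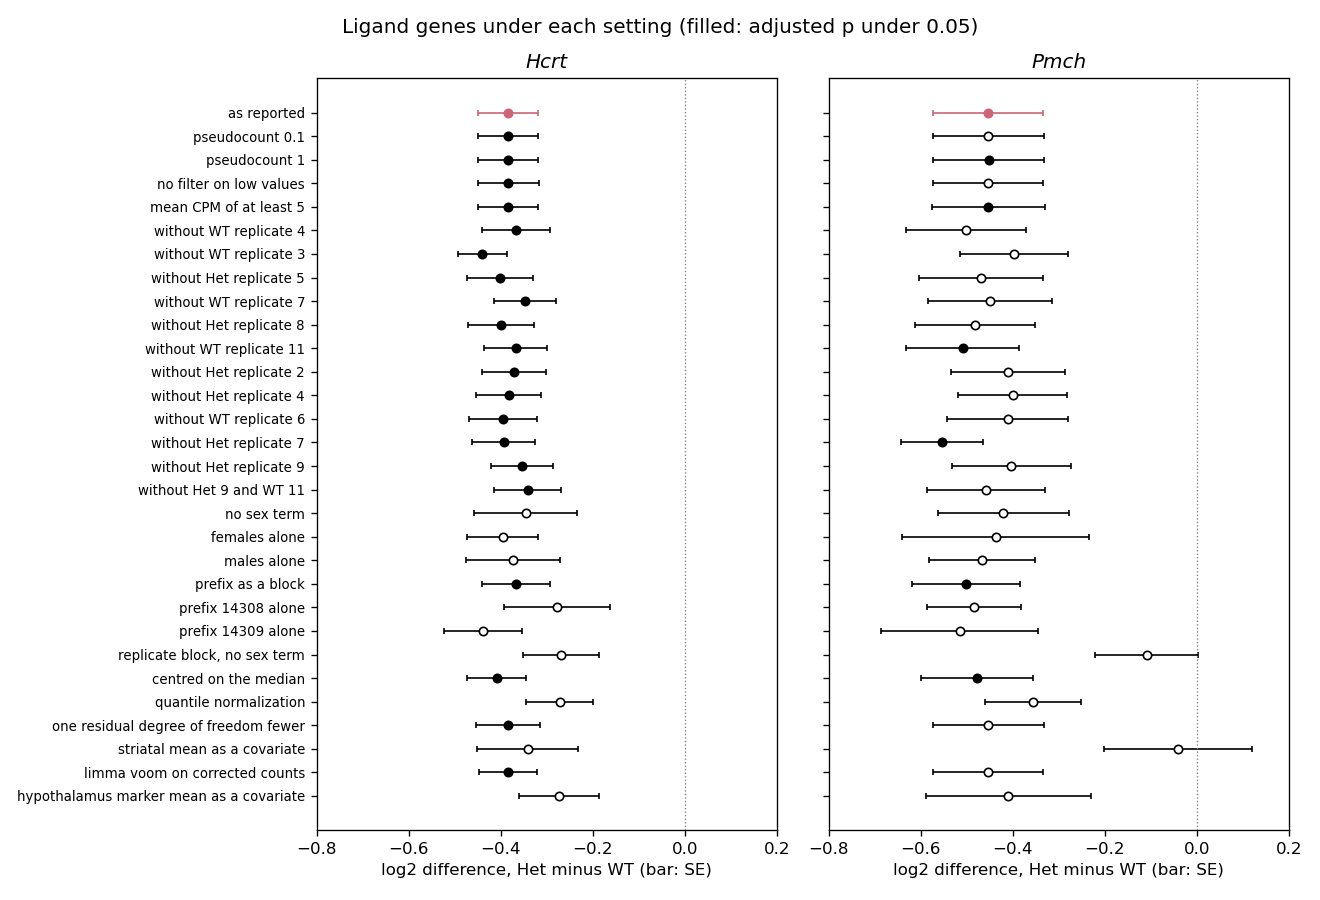
Log2 difference of Hcrt (left) and Pmch (right) between Het and WT under each setting, with SE bars, red for the value as reported and filled points for a limma adjusted p under 0.05. Every point is below 0; for Hcrt they lie between -0.44 and -0.27, and for Pmch the points nearest 0 are the striatal covariate (-0.04) and the replicate block (-0.11).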

How the data were processed

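Gene expression was measured by RNA sequencing of hypothalamus. Per the labels' protocols, a Zymo kit gave the RNA and the SMARTer Ultra Low kit the libraries, and the submitters' processing notes name Trimmomatic, Bowtie2, STAR and HTSeq with mm10. The authors deposited log2 CPM plus a small constant for 14864 genes, after a correction that the deposited table's name gives as RUVr, which removes variation estimated from residuals. The sources used here do not give its settings. P-values from corrected values may be too small, so a fit with 1 residual degree of freedom fewer was added. That fit does not reach the exact permutations or the counts of separated libraries, which rest on the same corrected values. Back-transformed values minus the floor (-3.574 in all 11 columns) were whole multiples of 1 step within 0.02, and the corrected counts summed to 22921048 to 24941704 per library. The depth of raw reads is unknown.

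CPM were recovered and log2(CPM + 0.5) fitted for 13184 genes whose mean CPM reached 1 (limma 3.58.1 in R 4.3.3, eBayes with a trend, genotype and sex as terms), with Benjamini-Hochberg adjustment over all genes at 0.05. Fits were tested on simulated data. Levels per kb, coordinates and overlaps use GENCODE M21. The 5 genes, the gene lists and the tests were chosen with earlier results of these data known. From each list up to 4 genes with the smallest p were named (2 more signalling genes after their values were seen), and for each of the 5 genes the 3 with the most similar deviations, without predicted-gene names. Same-numbered libraries of the 2 genotypes carry different identifier prefixes (14111, 14308, 14309), so their numbers do not pair them.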

Additional observations from a re-analysis of the deposited data

Results flagged for a closer look

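Among 12 groups looked at (5 genes and the ratio of Hcrt to Pmch, in WT and in Het), 2 had a library far from the others, where chance gives about 1 in 20. Pmch in Het replicate 7 was 630.4 CPM, with a gap to the next Het library of 0.765 of the group's range. Without that library the difference of Pmch was -0.55. Hcrtr2 in WT replicate 3 was 9.78 CPM, with a gap of 0.897 of the range. Without that library the difference of Hcrtr2 was 0.19 and did not pass.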

How the results depend on the processing

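Hcrt kept its direction between the genotypes in all 29 alternatives and passed in 20. It missed the threshold without a sex term (-0.35), in females (-0.40) or males (-0.37) alone, in prefix 14308 (-0.28) or 14309 (-0.44) alone, with quantile normalization (-0.27), with the striatal (-0.34) or hypothalamus (-0.27) covariate, and with the replicate block described below. Pmch kept its direction in all 29 and passed in 6, missing with a pseudocount of 0.1 (-0.45), no filter (-0.45), 1 residual degree of freedom fewer (-0.45), limma voom on the corrected counts (-0.45), no sex term (-0.42), females (-0.44) or males (-0.47) alone, prefix 14308 (-0.48) or 14309 (-0.52) alone, quantile normalization (-0.36), the striatal (-0.041) or hypothalamus (-0.41) covariate, without both libraries in doubt (-0.46), and with that block. Leaving out 1 library gave Hcrt -0.44 to -0.35, Pmch -0.55 to -0.40, Hcrtr1 -0.52 to -0.37, Hcrtr2 0.02 to 0.19 and Mchr1 0.17 to 0.34. Hcrtr2 turned negative without both libraries in doubt (-0.021), in prefix 14308 (-0.26) and with the striatal (-0.049) or hypothalamus (-0.12) covariate, and Mchr1 with the striatal one (-0.18). The cause of these shifts was not tested. Voom, the hypothalamus covariate and all but the pseudocount and leave-one-out alternatives for sex were chosen after seeing the data.

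The 453 genes past the threshold became 140 to 820 when 1 library was left out, 229 without both in doubt, 200 without a sex term, 0 in females fitted alone (limma, with 1981 at an unadjusted p under 0.05), 1 in males fitted alone, 300 with prefix as a block, 6 and 16 within prefixes 14308 and 14309, 189 with 1 degree of freedom fewer, 2 with the striatal and 0 with the hypothalamus covariate (limma, with 2040 at an unadjusted p under 0.05). Of the genes passing, 303 were higher and 150 lower, against 233 and 243 after centring on the median and 362 and 102 after quantile normalization. Between the sexes the 26 genes became 10 to 62 when 1 library was left out, 5 with the hypothalamus covariate, 6 with prefix as a block, 17 without both in doubt and 11 with 1 degree of freedom fewer. The sex difference of Hcrtr2 was -0.17 to 0.00 when 1 library was left out and 0.074 with the hypothalamus covariate. The interaction changed sign for Hcrt (-0.10 to 0.088), Pmch (-0.22 to 0.16), Hcrtr2 (-0.03 to 0.32) and Mchr1 (-0.068 to 0.28).

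Replicate numbers 4 and 7 occur in both genotypes under different prefixes and share only a number. With the replicate block and no sex term, Hcrt was -0.27 (limma adjusted p = 0.177), Pmch -0.11 (0.794) and the count 46. The planned count models edgeR and DESeq2 were not run, because the deposited values are log2 values after a correction. Raw depth is unknown. The SE was largest for Hcrtr2 (0.156) and Hcrtr1 (0.148), the genes of the set with the lowest levels, and smallest for Hcrt (0.065).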
